A study of Mus musculus with 12 samples.

Results

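The imprinted growth network genes are 10 genes of which each cell normally uses the copy from only 1 parent and which, in other tissues, switch off together as growth slows after birth. They were Dlk1, Meg3, Peg3, Peg10, Mest, Plagl1, Cdkn1c, Grb10, Ndn and Sgce, chosen by name, and all 37 probe sets that name 1 of them were taken, out of 45037 probe sets for 18193 genes. Each gene was also read at its brightest probe set, the probe set with the highest mean over all arrays. The 6 tumours were hepatocellular carcinomas (HCC) that arose spontaneously in B6C3F1 mice, the first-generation cross of the C57BL/6 and C3H strains, and the 6 controls were normal livers of the same strain. All animals were 2 years old, came from a long-term bioassay and received no treatment, so every animal shared the genetic background, and no gene was altered by design. RNA was measured on 12 single-colour Affymetrix arrays, 1 for each sample. Sex, batch and pairing are absent from the labels, and nothing in them says that the samples came from separate animals, so the p-values measure the spread between these samples.

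In an imprinted gene a methylation mark laid down in the egg or the sperm decides which parental copy is silent. Several paternally expressed genes, among them Dlk1, Peg3, Peg10 and Mest, favour growth of the embryo and placenta, whereas the maternally expressed Cdkn1c and Grb10 restrain it. In mouse liver these genes are active in the fetus, and most decline after birth. Plagl1 codes for a zinc finger protein that acts on other members of the network.

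Levels are given as log2(intensity + 16) after quantile normalization, a scale whose floor is 4 and whose fold changes understate changes of dim probe sets. The median probe set lay at 6.76, and 21 of the 37 member probe sets were below it. The share of intensities under 16 was between 14.2% and 18.1% on each array. Hepatocyte markers were bright in both groups, with a summed intensity of 220975 to 266049 in HCC and 250764 to 267505 in normal liver. They were not alike in all tumours. Tat differed by -1.14, with 5 HCC below the normal range, and Cps1 by -0.86, with 4 below and 2 above. Alb, Apoa1, Apob and Ttr differed by -0.04 to 0.08. The mean log2 level of the list relative to normal liver was -0.72, -0.35, 0.01, -0.56, -0.02 and -0.27 in HCC 1 to 6. Signal of 3 Y-linked genes was absent (mean log2 level 4.17 to 4.85) from HCC 1, HCC 4, normal liver 1 and normal liver 3, and present (8.96 to 9.77) in the other 8 samples. In whole tissue, fewer cells of a type and less RNA per cell cannot be told apart.

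The members did not all change in the same direction, and most did not pass the test. Of the 37 probe sets, 1 rose in HCC and 5 fell (limma, Benjamini-Hochberg adjusted p under 0.05), where the background over all probe sets was 4.38% higher and 3.95% lower. The probe set that rose was the brightest of Grb10, and the 5 that fell were all of Ndn. Read at the brightest probe set, 1 of 10 members was higher and 1 was lower, against 5.27% and 5.49% of all genes. Single tumours departed from normal liver in different genes. Of the 60 HCC values of the 10 members, 20 were above the highest normal liver, 20 were below the lowest and 20 were inside the normal range. A member had on average 4 of 6 HCC outside the normal range, and a gene in general had 2.85.

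**Figure D1:**
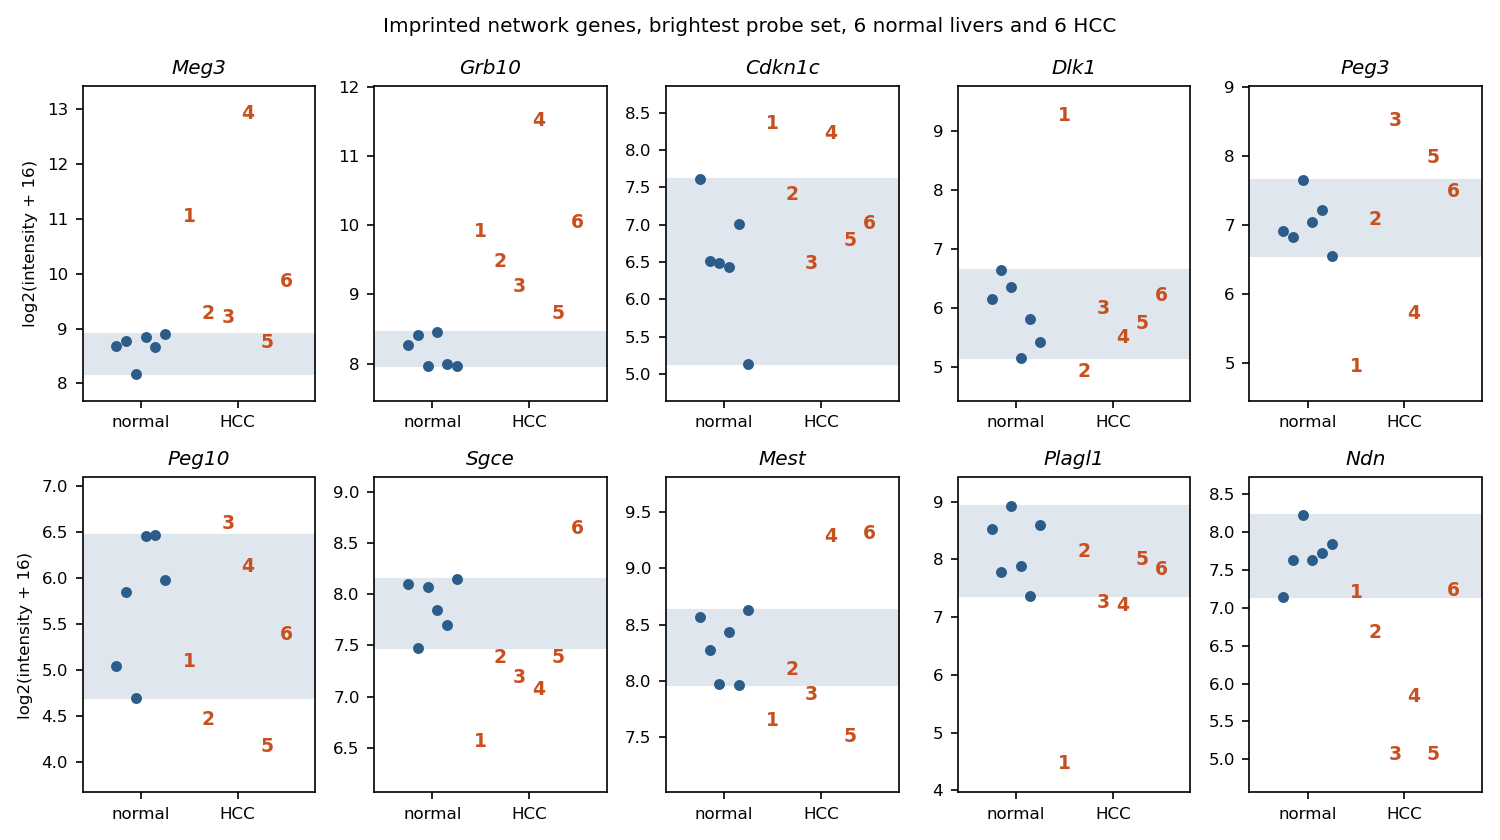
Levels of the 10 members at their brightest probe set, as log2(intensity + 16), in 6 normal livers and 6 HCC. Each normal liver is 1 point, each HCC is its number, and the shaded band is the range of the normal livers. Grb10 is the member whose groups do not overlap, the Meg3 points of HCC 4 and HCC 1 stand at 12.93 and 11.06 above a highest normal liver of 8.89, and the Dlk1 point of HCC 1 stands at 9.26.

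Of the maternally expressed members, Meg3 is a long noncoding RNA of chromosome 12, transcribed from the maternal copy of the domain that holds Dlk1. Its promoter is shown because Meg3 had the greatest spread among tumours of any member. The window runs from 250 bases before to 50 after the RefSeq start (GRCm38.p6, chr12:109540746-109541045, plus strand), and capitals mark its 13 CpG pairs, the positions at which DNA can be methylated. The median over 32851 windows of this length was 7 such pairs, and methylation was not measured. It is the most upstream Meg3 window, and another (chr12:109545148-109545447) holds 1 CpG pair.
Meg3 promoter: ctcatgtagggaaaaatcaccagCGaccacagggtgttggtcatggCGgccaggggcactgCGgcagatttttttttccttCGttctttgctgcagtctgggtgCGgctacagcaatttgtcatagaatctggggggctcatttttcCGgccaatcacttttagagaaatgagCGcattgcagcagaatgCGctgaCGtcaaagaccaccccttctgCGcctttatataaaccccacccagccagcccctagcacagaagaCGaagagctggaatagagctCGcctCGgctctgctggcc

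Meg3 was high in some tumours and near normal in others. Its levels in HCC 1 to 6 were 11.06, 9.27, 9.20, 12.93, 8.75 and 9.86, and the normal livers had a lowest, median and highest level of 8.18, 8.73 and 8.89. HCC 4 was at 19.1 times the normal mean, HCC 1 at 5.21 times and HCC 6 at 2.28 times, and HCC 5 was the tumour inside the normal range. The mean difference was 1.503 ± 0.58 (SE, n = 6 per group, 95% interval 0.25 to 2.75), and it did not pass the test (limma adjusted p = 0.136). Without HCC 4 the difference was 0.95. The SD among HCC was 6.04 times that among normal livers. A ratio as large was found in 1.53% of all genes, and the median ratio was 1.25.

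All 11 Meg3 probe sets had a positive difference, between 0.07 and 2.65, and 0 of them passed the test (limma), with 4 at an unadjusted p under 0.05. They fell into 2 kinds. In 6 probe sets HCC 4 was 3.96 to 6.25 above the normal mean, HCC 1 was 2.26 to 4.45 above it and HCC 6 was 1.07 to 2.71 above it. In these 6 probe sets HCC 1, HCC 4 and HCC 6 were each above the normal range without exception. In the 5 others HCC 4 differed by 0.14 to 1.86 and HCC 6 by -1.02 to 0.66. The grouping was made after the values were seen and carries no test. Meg3 has many transcript forms, and which of them each probe set reads was not analysed here.

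**Figure D2:**
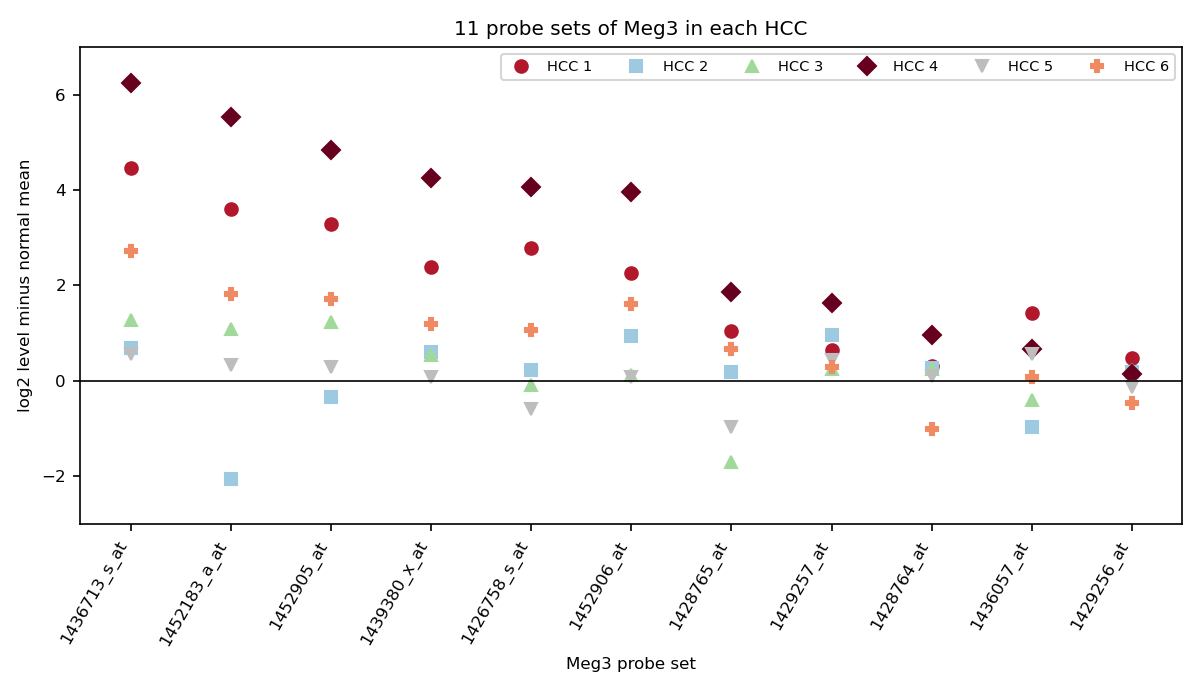
Each of 11 Meg3 probe sets (x axis) with the 6 HCC as points, as log2 level minus the mean of the normal livers. In 6 probe sets HCC 4 lies highest, 3.96 to 6.25 above the line at 0, with HCC 1 next at 2.26 to 4.45, and in the 5 others the tumours lie closer together.

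The neighbours of Meg3 did not all follow it. Rian, a maternally expressed RNA gene that hosts small nucleolar RNAs, stood at 8.61, 5.95, 6.79, 10.12, 6.49 and 7.26 in HCC 1 to 6. The normal livers had 5.89, 6.05 and 6.69 as lowest, median and highest level of Rian. As for Meg3, HCC 4, HCC 1 and HCC 6 were the 3 highest tumours. The Rian difference was 1.41 ± 0.58 (SE, limma adjusted p = 0.162). Mirg, a maternally expressed host of microRNAs farther along the domain, was above its normal range (7.53 to 8.45) only in HCC 4, at 9.72. HCC 1 stood inside that range, at 7.57, and HCC 3 and HCC 6 below it, at 7.073 and 7.075. The Mirg difference was -0.12 (limma adjusted p = 0.896). Dio3 and Rtl1, at the far end and within the domain, were not analysed here.

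Dlk1, the paternally expressed gene of the same domain, codes for a membrane protein of the Notch ligand family that keeps progenitor cells from differentiating and marks fetal hepatoblasts. Its start is shown for comparison with Meg3 (GRCm38.p6, chr12:109452573-109452872, plus strand, 9 CpG pairs in capitals).
Dlk1 promoter: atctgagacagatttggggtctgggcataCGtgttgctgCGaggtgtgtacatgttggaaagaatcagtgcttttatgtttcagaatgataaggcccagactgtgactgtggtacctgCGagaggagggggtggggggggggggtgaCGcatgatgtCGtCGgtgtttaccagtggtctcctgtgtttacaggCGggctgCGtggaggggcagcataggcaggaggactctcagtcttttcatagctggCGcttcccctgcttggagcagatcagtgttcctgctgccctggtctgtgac

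At its brightest probe set Dlk1 was above the normal range in HCC 1 alone. HCC 1 stood at 9.26, or 10.1 times the normal mean, and HCC 2 to 6 stood at 4.93, 5.996, 5.50, 5.74 and 6.21. The normal livers had 5.15, 5.99 and 6.65 as lowest, median and highest level. HCC 2 was below that range and the remaining 4 tumours were inside it, HCC 4 with its high Meg3 among them. The mean difference was 0.34 ± 0.60 (SE, limma adjusted p = 0.79), and it was -0.26 without HCC 1. The other Dlk1 probe set did not show the high value, with HCC 1 at 4.96 inside a normal range of 4.28 to 6.38, and its difference was 0.15 (limma adjusted p = 0.885). In it HCC 6, at 6.82, was the tumour above the normal range. The 2 Dlk1 probe sets therefore disagreed on which tumour was high. Across the 6 HCC, Dlk1 and Meg3 had a Pearson r of 0.23 (exact permutation p = 0.675, adjusted over 45 member pairs 0.877) and a Spearman rho of 0.14 (exact permutation p = 0.803, adjusted 0.903). Without HCC 1 and HCC 2, the tumours farthest from the Dlk1 median, r was -0.61, and the Y-linked split leaves 4 and 2 tumours, too few for an r within each.

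Grb10 codes for an adaptor protein that binds the insulin and IGF1 receptors and dampens their signal, and it is expressed from the maternal copy in most tissues. It is the member that rose, so its promoter is shown (GRCm38.p6, chr11:12037371-12037670, minus strand). The window, the most upstream of this gene, holds 45 CpG pairs, in capitals, a number reached in 1.9% of all windows. Another Grb10 window (chr11:12027922-12028221) holds 9, a number reached in 45.8%.
Grb10 promoter: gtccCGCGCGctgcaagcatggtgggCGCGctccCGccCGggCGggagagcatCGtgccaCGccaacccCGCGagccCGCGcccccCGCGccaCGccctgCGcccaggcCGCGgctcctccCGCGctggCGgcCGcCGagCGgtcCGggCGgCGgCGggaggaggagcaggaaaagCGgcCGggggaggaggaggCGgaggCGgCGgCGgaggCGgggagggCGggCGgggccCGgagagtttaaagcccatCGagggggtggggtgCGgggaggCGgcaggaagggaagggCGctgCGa

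Grb10 was higher in every tumour than in every normal liver. HCC 1 to 6 stood at 9.90, 9.47, 9.11, 11.51, 8.72 and 10.04, and the normal livers had 7.96, 8.13 and 8.46 as lowest, median and highest level. HCC 4 was highest, at 10.0 times the normal mean, and HCC 5 lowest, at 1.45 times. The mean difference was 1.61 ± 0.37 (SE, n = 6 per group, 95% interval 0.80 to 2.42, limma adjusted p = 0.0195). Such a complete separation upwards was found for 4.25% of all genes. The call held without each single array (adjusted p up to 0.044). Among the 8 samples with Y-linked signal the difference was 1.12 and did not pass the test (limma adjusted p = 0.0839).

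The other Grb10 probe sets pointed the same way without passing. In 1425457_a_at the lowest HCC, at 7.19, lay above the highest normal liver, at 7.02, with a difference of 1.19 (limma adjusted p = 0.0663). In 1430164_a_at 4 of 6 HCC were above the normal range and the difference was 0.90 (limma adjusted p = 0.199). The neighbours of Grb10 on chromosome 11 went their own ways. Ddc, the aromatic amino acid decarboxylase, fell, with HCC between 10.48 and 11.68 and normal livers between 12.26 and 13.10, a difference of -1.58 ± 0.23 (SE, limma adjusted p = 0.0014). Cobl, an actin nucleator, differed by 0.70 without passing the test (limma adjusted p = 0.133).

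Cdkn1c codes for the cyclin-dependent kinase inhibitor p57, a brake on the cell cycle, and has 1 probe set. HCC 1 to 6 stood at 8.35, 7.41, 6.48, 8.21, 6.79 and 7.01, and the normal livers had 5.14, 6.50 and 7.61. HCC 1 and HCC 4 were above the normal range and the 4 others were inside it. The difference was 0.85 ± 0.42 (SE, 95% interval -0.05 to 1.74, limma adjusted p = 0.248). Read at the brightest probe set of each member, Cdkn1c was the one whose tumours varied no more than the normal livers, with an SD ratio of 0.938.

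Phlda2, a maternally expressed neighbour of Cdkn1c that limits placental growth, rose. All 6 HCC, between 7.25 and 10.41, were above all 6 normal livers, between 4.86 and 6.20, and the difference was 2.83 ± 0.47 (SE, limma adjusted p = 0.00297). Kcnq1ot1, the paternally expressed noncoding RNA of this cluster, differed by 0.59 (limma adjusted p = 0.23). Ascl2, a placental transcription factor, differed by 1.44 (limma adjusted p = 0.0586), Tspan32 by -0.61 (limma adjusted p = 0.0788) and Cd81 by 0.36 (limma adjusted p = 0.111). Ins2, Th, Tssc4, Kcnq1, Slc22a18, Nap1l4 and Osbpl5 differed by -0.36 to 0.28, and 0 of these 7 passed the test (limma), with 0 at an unadjusted p under 0.05. Igf2, the fetal growth factor on the same chromosome, differed widely among tumours. It stood at 9.80, 6.19, 14.32, 11.42, 6.70 and 14.05 in HCC 1 to 6, against 6.97, 7.39 and 8.02 in normal livers. HCC 3 was at 112 times and HCC 6 at 93.1 times the normal mean, and HCC 2 and HCC 5 were below the normal range. Its mean difference of 2.91 ± 1.27 (SE) did not pass the test (limma adjusted p = 0.189). The order of tumours was not that of Meg3 or Grb10, both highest in HCC 4. H19 was not analysed here.

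Of the paternally expressed members, Ndn codes for necdin, a protein of the MAGE family that holds cells out of the cycle, best known from neurons. It is the member that fell, and its start is shown (GRCm38.p6, chr7:62348027-62348326, plus strand, 11 CpG pairs in capitals).
Ndn promoter: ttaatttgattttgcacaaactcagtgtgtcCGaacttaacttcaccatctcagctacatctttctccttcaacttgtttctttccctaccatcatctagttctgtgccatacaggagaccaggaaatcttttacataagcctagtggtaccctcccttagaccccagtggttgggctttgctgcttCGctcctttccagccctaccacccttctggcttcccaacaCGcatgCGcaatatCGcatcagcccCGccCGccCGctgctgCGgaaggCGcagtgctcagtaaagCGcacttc

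Ndn was lower in HCC at most of its probe sets. At the brightest, HCC 1 to 6 stood at 7.20, 6.68, 5.06, 5.82, 5.06 and 7.23, and the normal livers had 7.14, 7.68 and 8.22 as lowest, median and highest level. HCC 3 and HCC 5 were lowest, each at 0.161 of the normal mean, and HCC 1 and HCC 6 were inside the normal range. The difference was -1.52 ± 0.40 (SE, n = 6 per group, 95% interval -2.38 to -0.67, limma adjusted p = 0.0325). That call was lost when normal liver 2, 3, 4, 5 or 6 or HCC 3, 4 or 5 was left out (limma adjusted p up to 0.0689). It was also lost with a pseudocount of 1 (limma adjusted p = 0.0565) and among samples with Y-linked signal (-1.70, limma adjusted p = 0.101).

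The other 7 Ndn probe sets all had negative differences, and 4 of them fell. Probe set 1435383_x_at had all 6 HCC below all 6 normal livers, with HCC at 4.24 to 6.68 and normal livers at 6.86 to 7.56, and a difference of -1.80 (limma adjusted p = 0.00763). Probe set 1415923_at differed by -2.05 (limma adjusted p = 0.00826) and had 5 of 6 HCC below the normal range. Probe set 1455792_x_at differed by -1.65 (limma adjusted p = 0.00923). These 3 kept an adjusted p up to 0.0224 without each single array. Among samples with Y-linked signal 1435383_x_at kept its call (limma adjusted p = 0.0235), whereas 1415923_at (0.0671) and 1455792_x_at (0.148) lost theirs. The fourth, 1435382_at, differed by -1.14 (limma adjusted p = 0.0442) and lost its call without any of 9 arrays (adjusted p up to 0.0932), namely normal livers 1, 3, 4, 5 and 6 and HCC 1, 2, 3 and 5. The remaining 3, among the dimmest of the gene, differed by -1.06 (limma adjusted p = 0.0805), -0.20 and -0.22. Several probe sets read the same transcript and are no independent measurements of the gene.

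Of the 6 other genes measured around Ndn, 0 passed the test (limma), with 1 at an unadjusted p under 0.05. That was Atp10a, a lipid flippase, at 9.57, 6.54, 6.21, 9.35, 6.89 and 9.02 in HCC 1 to 6, against 4.49, 5.84 and 6.91 in normal livers. HCC 1, HCC 4 and HCC 6 were above the range, and the difference was 2.24 (limma adjusted p = 0.0525). Ube3a, a ubiquitin ligase, differed by 0.06 (limma adjusted p = 0.903). Magel2 differed by -0.15 (limma adjusted p = 0.855), Mkrn3 by -0.14 (limma adjusted p = 0.831), Peg12 by -0.41 (limma adjusted p = 0.548) and Snrpn by 0.16 (limma adjusted p = 0.854). In normal liver the medians of Magel2, Mkrn3, Peg12 and Snrpn were between 5.24 and 6.21, below the median probe set. Ndn is also expressed by mesenchymal cells such as stellate cells, and 3 of 12 stellate and fibroblast markers fell (Lrat, Hand2 and Ngfr). All 3 were below their normal ranges in each of HCC 1 to 5, not only in HCC 3 and HCC 5, the lowest at the brightest Ndn probe set. Other Ndn probe sets gave another order. HCC 4 was lowest at 1435383_x_at and 1415923_at, at 4.24 and 4.27, and HCC 3 at 1455792_x_at, at 4.21. In HCC 3 and HCC 5 Lrat stood at 7.36 and 7.77 against a lowest normal liver of 8.95. Hand2 stood at 6.86 and 6.30 against 8.07, and Ngfr at 7.03 and 7.37 against 7.80. HCC 1 was lowest in Lrat, at 4.35, and in Hand2, at 4.70. Its Ndn was inside the normal range at the brightest probe set, though below it at 7 of 8 probe sets. Other markers of the list, named after their values were seen, had positive differences without passing the test. Col1a1 differed by 3.27 (limma adjusted p = 0.0515), Col3a1 by 1.68 (limma adjusted p = 0.164) and Reln by 1.14 (limma adjusted p = 0.076), each with 5 of 6 HCC above the normal range. The list thus did not move as 1 class, and 6 of its 12 markers had an unadjusted p under 0.05. Their summed intensity was 9008 to 84196 in HCC and 7027 to 10597 in normal liver, and their mean log2 level relative to normal liver was -1.42, -0.33, -0.10, -0.05, 0.19 and 2.29 in HCC 1 to 6. The part of these cells in the Ndn result was not tested.

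**Figure D3:**
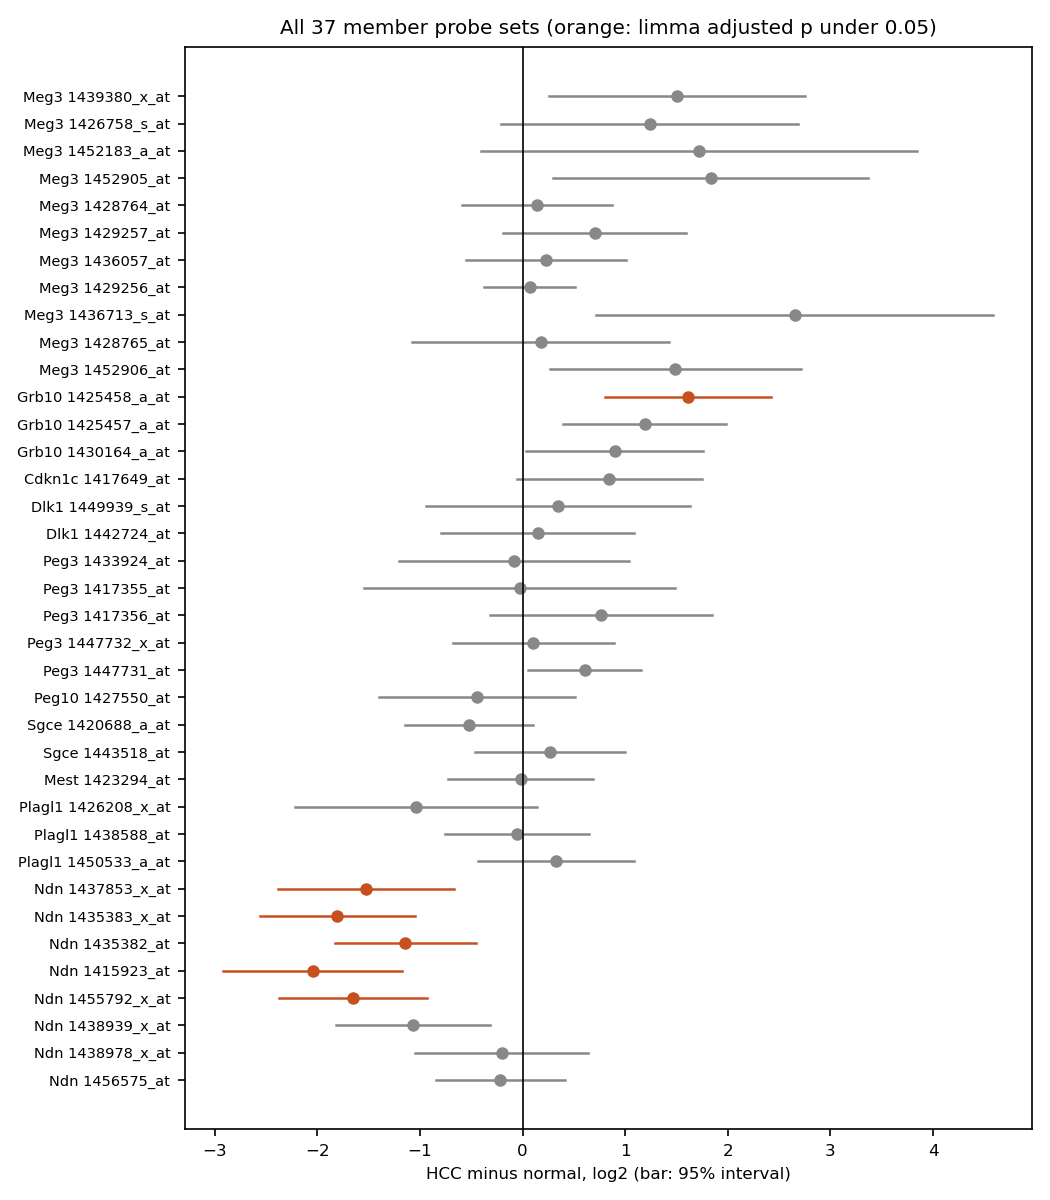
Difference of HCC minus normal liver on the log2 scale for all 37 member probe sets, with bars for the 95% interval and orange for a limma adjusted p under 0.05. The 1 orange point to the right is Grb10, the 5 to the left are Ndn, and all 11 Meg3 points lie to the right of 0 in grey.

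Sgce and Peg10 are paternally expressed neighbours on chromosome 6 that are read in opposite directions from adjacent starts. Sgce codes for epsilon-sarcoglycan, a protein of the cell membrane, and Peg10 derives from a retrotransposon and is needed for the placenta. Sgce was below its normal range in 5 of 6 tumours. HCC 1 to 6 stood at 6.56, 7.38, 7.18, 7.07, 7.38 and 8.64, against 7.47, 7.96 and 8.15 in normal livers, and HCC 6 was above the range. The difference was -0.52 ± 0.29 (SE, 95% interval -1.14 to 0.10, limma adjusted p = 0.309). Without HCC 6 it was -0.77 and passed the test (limma adjusted p = 0.0384). HCC 6 was also the tumour with the highest mean of the stellate and fibroblast markers, 2.29 above normal liver, and the part of these cells in the Sgce value was not tested. The second, dimmer Sgce probe set differed by 0.27 (limma adjusted p = 0.695).

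Peg10, with 1 dim probe set, had HCC 1 to 6 at 5.10, 4.46, 6.59, 6.12, 4.17 and 5.38 and normal livers at 4.70, 5.91 and 6.47. HCC 2 and HCC 5 were below the normal range, near the floor, and HCC 3 was just above it. The difference was -0.44 ± 0.44 (SE, limma adjusted p = 0.601). It was -0.70 without HCC 3 and -0.22 without HCC 5. Among samples with Y-linked signal it was -1.04, and among the 4 without it 0.74, with no test of the latter. Peg10 and Sgce had an r of -0.07 over the 6 HCC (exact permutation p = 0.922, adjusted 0.978) and a rho of -0.26 (exact permutation p = 0.658, adjusted 0.903), and without HCC 3 and HCC 5 r was 0.01. Of the 8 other genes measured around them, Tfpi2, a protease inhibitor, and Ppp1r9a, an actin-binding regulator of protein phosphatase, fell, as described with the other imprinted genes. The 6 others did not pass the test (limma). Pon1 differed by -1.85 (adjusted p = 0.0763), Pon2 by 0.42 (adjusted p = 0.0789), and Pon3, Casd1, Calcr and Asb4 by -0.45 to 0.30.

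Peg3 codes for a large zinc finger protein that is active in embryo, placenta and brain. Its start is shown (GRCm38.p6, chr7:6730370-6730669, minus strand) because it holds, in capitals, the letters GGGGCCCC of the motif described for Plagl1. The motif reads the same on both strands, and no other motif was searched. It was present in 1 of 11 windows of 7 members and in 1.08% of all windows. These letters describe the sequence and show no binding.
Peg3 promoter: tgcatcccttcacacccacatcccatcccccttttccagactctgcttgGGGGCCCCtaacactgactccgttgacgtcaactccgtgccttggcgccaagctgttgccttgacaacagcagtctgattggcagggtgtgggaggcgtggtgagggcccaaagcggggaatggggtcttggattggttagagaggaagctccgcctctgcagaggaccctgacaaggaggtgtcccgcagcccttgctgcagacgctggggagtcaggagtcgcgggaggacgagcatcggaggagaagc

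Peg3 went in opposite directions in different tumours. HCC 1 to 6 stood at 4.95, 7.07, 8.51, 5.71, 7.97 and 7.49, and the normal livers had 6.56, 6.98 and 7.65. HCC 3 and HCC 5 were above the normal range, and HCC 1 and HCC 4 below it, HCC 1 at 0.237 of the normal mean. The mean difference of -0.08 ± 0.52 (SE, limma adjusted p = 0.95) averages over this spread, which was 3.64 times that among normal livers. The second brightest probe set, 1417355_at, had HCC 3 highest, at 8.998, and HCC 1 lowest, at 4.79, and differed by -0.03. It departed from the brightest in HCC 2, which was below its normal range at 4.83, and in HCC 4, which was inside it at 6.01. It also departed in HCC 6, which was above it at 7.60, against a highest normal liver of 7.35. The 3 dimmer probe sets, with normal medians of 4.16 to 4.51 near the floor, differed by 0.77, 0.10 and 0.60 (the last with a limma adjusted p = 0.171). Its measured neighbours Zim1, Zim2, Zim3 and Usp29 had differences between -0.02 and 0.34, and 0 passed the test (limma), with 0 at an unadjusted p under 0.05. HCC 1 and HCC 4 were also the tumours without Y-linked signal. Among samples with that signal the Peg3 difference was 0.85, and among those without it -1.95, the latter from 2 HCC and 2 normal livers and with no test.

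Plagl1 had its lowest value in HCC 1. HCC 1 to 6 stood at 4.46, 8.14, 7.25, 7.20, 8.01 and 7.82, against 7.37, 8.21 and 8.92 in normal livers. HCC 1 was at 0.076 of the normal mean, close to the floor, HCC 3 and HCC 4 were slightly below the normal range, and the 3 others were inside it. The difference was -1.03 ± 0.55 (SE, 95% interval -2.21 to 0.14, limma adjusted p = 0.283), and it was -0.50 without HCC 1. The 2 other probe sets differed by -0.05 and 0.32, and in 1438588_at HCC 1, at 7.47, was inside its normal range. The Plagl1 probe sets therefore disagreed on HCC 1. The neighbours Ltv1, Phactr2 and Sf3b5 differed by -0.19 to 0.12, and 0 passed the test (limma), with 0 at an unadjusted p under 0.05.

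Mest, which codes for a protein of the hydrolase fold family and has 1 probe set, also split. HCC 1 to 6 stood at 7.65, 8.11, 7.88, 9.28, 7.51 and 9.31, against 7.97, 8.36 and 8.63 in normal livers. HCC 4 and HCC 6 were above the normal range, HCC 1, HCC 3 and HCC 5 below it and HCC 2 inside it. The difference was -0.02 ± 0.33 (SE, limma adjusted p = 0.982), with a sign that turned under other scalings. Its 4 measured neighbours, Cpa4, Cep41, Copg2 and Klf14, had differences between -0.27 and 0.06, and 0 of these passed the test (limma), with 0 at an unadjusted p under 0.05.

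The members were then read tumour by tumour, each at its brightest probe set. In HCC 1, Dlk1, Meg3, Cdkn1c and Grb10 were above the normal range and Peg3, Mest, Plagl1 and Sgce below it. In HCC 4, Meg3, Mest, Cdkn1c and Grb10 were above it and Peg3, Plagl1, Ndn and Sgce below it. In HCC 3, Meg3, Peg3, Peg10 and Grb10 were above it and Mest, Plagl1, Ndn and Sgce below it. These 3 tumours had 8 of 10 members outside the normal range. HCC 6 had Meg3, Grb10, Mest and Sgce above the range and no member below it. HCC 2 had Meg3 and Grb10 above and Dlk1, Peg10, Ndn and Sgce below. HCC 5 had Peg3 and Grb10 above and Peg10, Mest, Ndn and Sgce below. Other probe sets gave different profiles in places. HCC 1 was below the range at 7 of 8 Ndn probe sets. HCC 2 was above it at 3 of 11 Meg3 probe sets and below it at 2. HCC 6 was below the range at 2 Meg3 probe sets, 1 of Ndn and 1 of Plagl1, and above it at 3 of 5 Peg3 probe sets. The second Sgce probe set had 0 HCC outside its range.

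**Figure D4:**
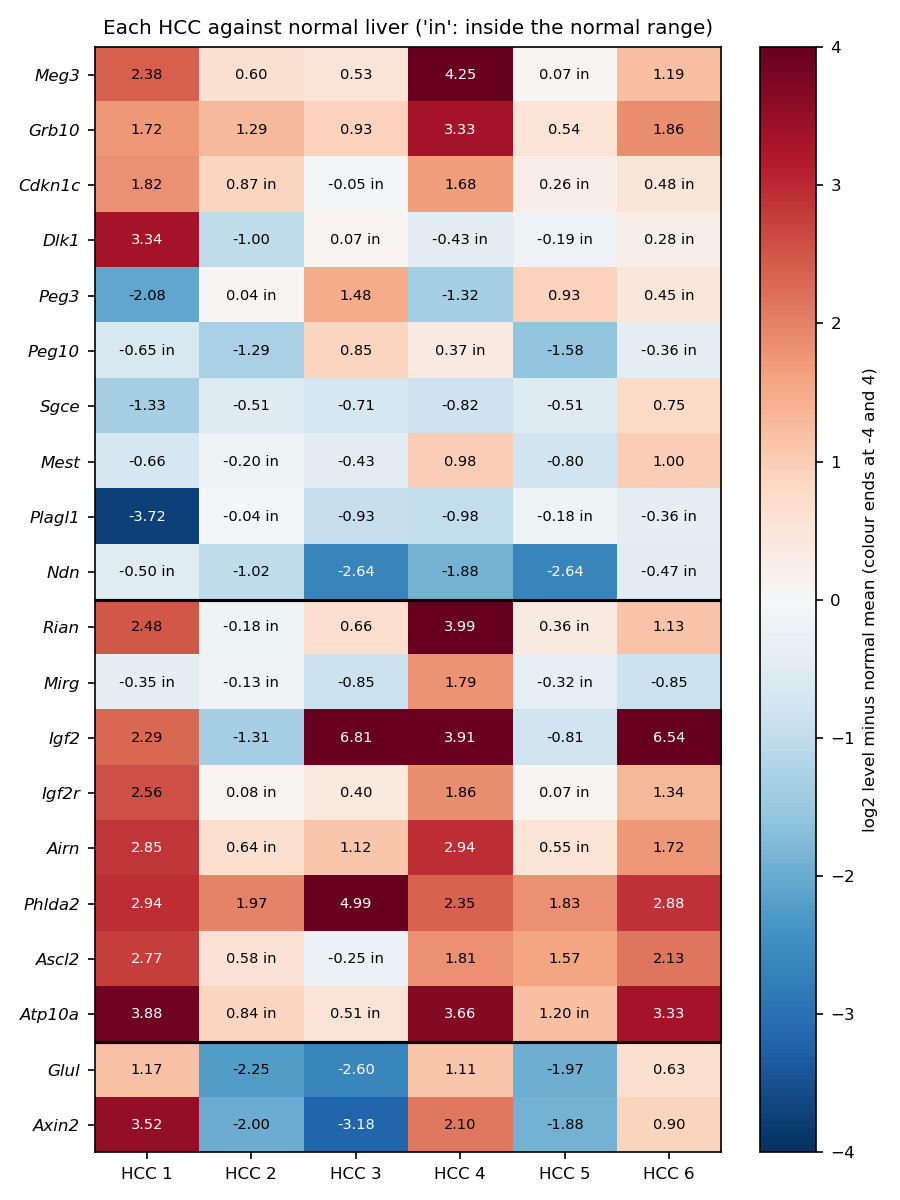
Log2 level minus the mean of normal liver for each of 6 HCC (columns) in the 10 members (top block), 8 other imprinted genes (middle block) and Glul and Axin2 (bottom block), with "in" for a value inside the range of the 6 normal livers. HCC 1, HCC 4 and HCC 6 are the 3 highest tumours in Meg3, Grb10, Rian, Igf2r, Airn, Atp10a, Glul and Axin2.

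At their brightest probe set, 5 of the 10 members had tumours on both sides of the normal range (Dlk1, Peg3, Peg10, Mest and Sgce), against 22.4% of all genes. Meg3 and Grb10 had at least 3 tumours above the range, against 21.2% of all genes. Mest, Plagl1, Ndn and Sgce had at least 3 below it, against 25.2% of all genes. The members were also grouped by the expressed copy, after the values were seen and with no test. At their brightest probe sets, the 3 maternally expressed members had 13 of 18 HCC values above the normal range and 0 below it. The 7 paternally expressed members had 7 of 42 above and 20 below. The 0 does not hold at all probe sets. Of the 11 of Meg3, 2 had HCC 2 below the range, 1 had HCC 5 and 2 had HCC 6. The other imprinted genes were not grouped in this way.

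At their brightest probe sets, 9 of 10 members had a wider spread among tumours than among normal livers. The median ratio of the SDs over all genes was 1.25, so most genes did the same. The excess does not hold at all probe sets of the members. At the second Dlk1 and Sgce probe sets the SD was 0.79 and 0.35 among HCC, against 0.87 and 0.82 among normal livers. After Meg3 at 6.04, the ratio of SDs was 4.2 in Grb10, 3.64 in Peg3, 2.85 in Ndn, 2.8 in Mest, 2.69 in Dlk1, 2.6 in Sgce, 2.32 in Plagl1 and 1.28 in Peg10. Ratios at least as large were found in 4.4% of all genes for Grb10 and in 6.38% for Peg3. The Meg3 and Grb10 values therefore lie toward the end of the range of all genes, and the Peg10 ratio, reached by 48.5%, in its middle.

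Of the 45 pairs of members over the 6 HCC, 0 passed after adjustment by either coefficient, with 4 at an unadjusted exact permutation p under 0.05 for r and 2 for rho. The 2 pairs with the smallest p were singled out after their values were seen. Peg3 and Cdkn1c ran in opposite order, with an r of -0.99 (exact permutation p = 0.00139, adjusted 0.0625) and a rho of -1 (exact permutation p = 0.00278, adjusted 0.125). Meg3 and Grb10, on different chromosomes, ran in nearly the same order, with an r of 0.95 (exact permutation p = 0.00417, adjusted 0.0938) and a rho of 0.94 (exact permutation p = 0.0167, adjusted 0.375). Without HCC 1 and HCC 4 the r was -0.99 and 0.98. These 2 tumours also lacked Y-linked signal, and an r within each side of that split would rest on 4 and 2 tumours and was not given.

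For several members, HCC minus normal was unlike between samples with and without Y-linked signal. Among the 8 samples with it, HCC minus normal was 0.47 for Meg3, 1.12 for Grb10 and 0.65 for Cdkn1c. In the 4 samples without it, the differences were 3.56, 2.59 and 1.23. Plagl1 differed by -0.10 with the signal and -2.90 without it, and Sgce by -0.15 and -1.27. Ndn was an exception, with -1.70 and -1.17, and so was Igf2, with 2.74 and 3.25. The side without the signal held 2 HCC and 2 normal livers, so these values carry no test, and the part of this split in each result was not tested. Normal livers 1 and 3, without the signal, stood at 8.68 and 8.18 in Meg3, 8.27 and 7.96 in Grb10 and 8.53 and 8.92 in Plagl1. Normal liver 3 was thus the lowest normal liver in Meg3 and Grb10 and the highest in Plagl1.

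HCC 1, HCC 4 and HCC 6, the highest in Meg3 and Grb10, were also the highest in Glul, the glutamine synthetase of the cells around the central vein, and in Axin2, a feedback target of Wnt signalling. Both were singled out after their values were seen. Glul stood at 15.17, 11.75, 11.40, 15.10, 12.03 and 14.62 in HCC 1 to 6, against a normal range of 13.29 to 14.33. Axin2 stood at 11.76, 6.24, 5.06, 10.34, 6.36 and 9.14, against 7.65 to 8.76. For both genes these 3 tumours were above the normal range and the 3 others below it. HCC 1 and HCC 4, the 2 highest in both genes, were also the tumours without Y-linked signal. What Glul and Axin2 have to do with the member levels was not tested.

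Among the other imprinted genes, 59 of 69 listed were measured, of which 3 rose (5.08%) and 4 fell (6.78%), near the shares over all genes. Airn, the noncoding RNA that silences Igf2r on the paternal copy, rose by 1.64 (limma adjusted p = 0.0396), with HCC 4 and HCC 1 highest at 9.70 and 9.62. Igf2r, the receptor that clears Igf2, reached 12.63 (HCC 1), 11.92 (HCC 4) and 11.41 (HCC 6), against a highest normal liver of 10.28, and differed by 1.05 (limma adjusted p = 0.133). Impact, a translation regulator, rose by 0.80 (limma adjusted p = 0.0384). Besides Ddc, Mcts2 fell by 1.83 (limma adjusted p = 0.00189), though it may share signal with its near-identical relative Mcts1. Tfpi2 fell by 1.29 (limma adjusted p = 0.0242), and Ppp1r9a fell by 1.06 (limma adjusted p = 0.0457).

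The calls of Phlda2, Ddc and Mcts2 held without each single array, and the other 4 did not. The Airn call was lost without normal liver 1, 2, 3, 4 or 5 or HCC 1, 4 or 6 (limma adjusted p up to 0.0829). The Impact call was lost without any of the 6 normal livers or HCC 1, 3 or 4 (limma adjusted p up to 0.0769). The Tfpi2 call was lost without normal liver 2, 5 or 6 or HCC 3 (limma adjusted p up to 0.0534). The Ppp1r9a call was lost without normal liver 1, 2, 4, 5 or 6 or HCC 2, 3, 5 or 6 (limma adjusted p up to 0.0966). The groups were completely separated upwards in 4 of these 59 genes (Phlda2, Impact, Gnas and Pon2) and downwards in 2 (Ddc and Mcts2), against 4.25% and 4.5% of all genes.

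Of 8 further genes counted to the network, 7 were measured, and 0 passed the test (limma), with 4 at an unadjusted p under 0.05. Besides Igf2 and Igf2r these were Dcn, a matrix proteoglycan, and Slc38a4, an amino acid transporter. Dcn, named after its values were seen, stood at 7.97, 10.16, 10.68, 9.32, 11.16 and 12.92 in HCC 1 to 6, against 11.99 to 12.83 in normal livers. It differed by -2.07 (limma adjusted p = 0.0595), with HCC 6 above and the 5 other tumours below the range, as for Sgce. Slc38a4 differed by -0.89 (limma adjusted p = 0.0629).

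**Figure D5:**
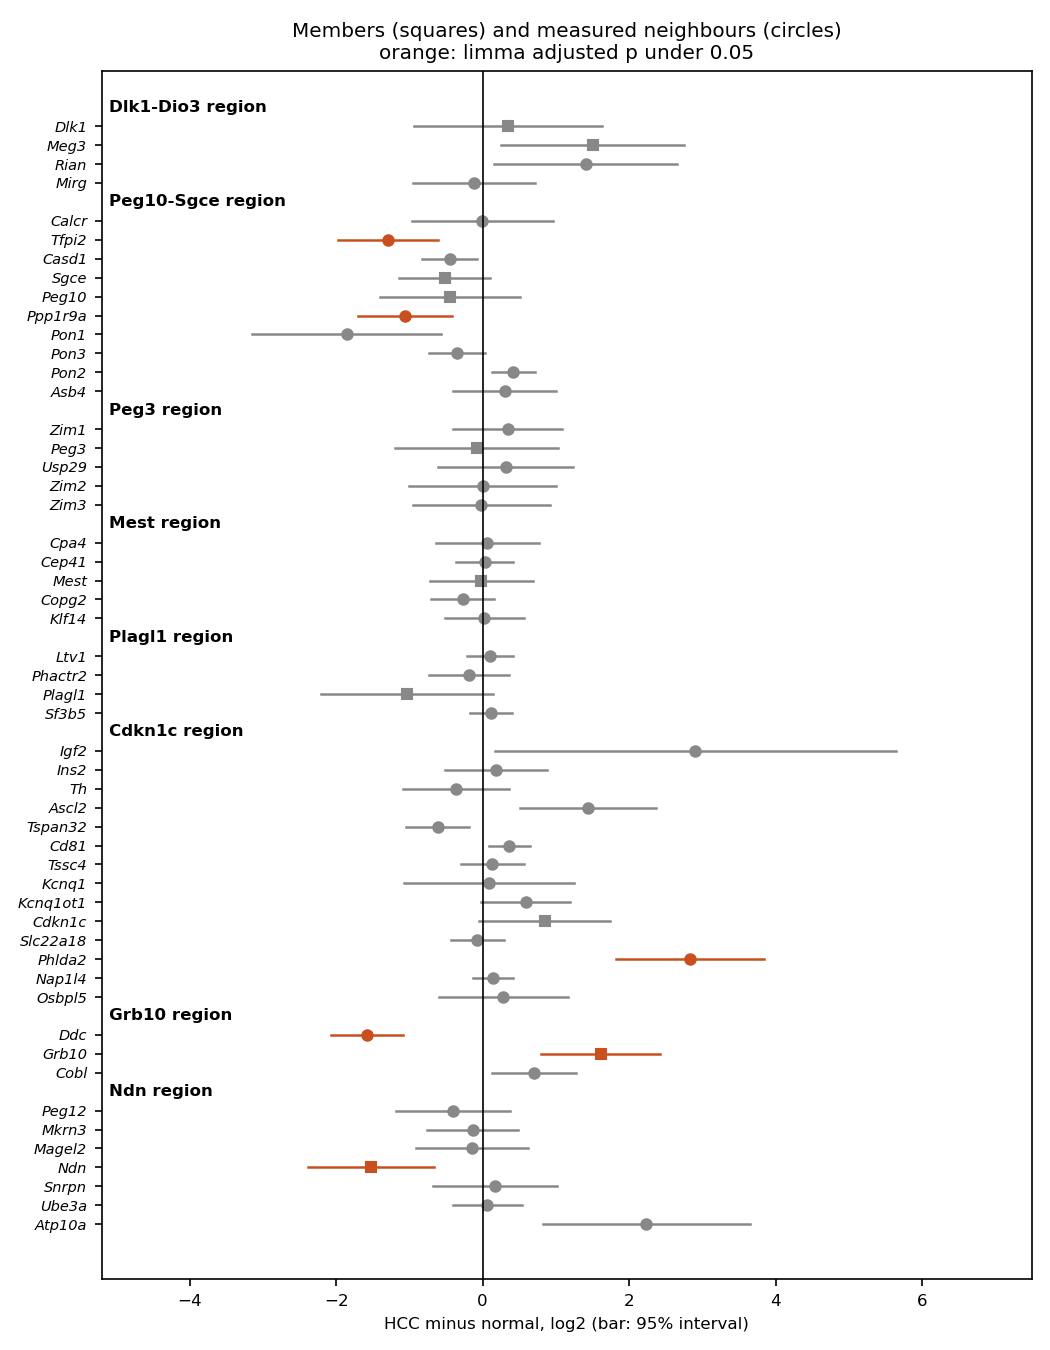
Difference of HCC minus normal liver on the log2 scale for the members (squares) and the measured genes of their 8 chromosomal regions (circles), with bars for the 95% interval and orange for a limma adjusted p under 0.05. Ndn at -1.52 and Grb10 at 1.61 are the 2 orange squares, and Ddc beside Grb10 is orange on the opposite side, at -1.58.

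Genes that act with the network were also read. Of 20 growth partners and fetal liver genes measured, 2 rose (10%) and 0 fell, against 5.27% and 5.49% of all genes. Afp, the fetal serum protein, rose by 8.26 (limma adjusted p = 8.23e-07) and Gpc3, a cell surface proteoglycan, by 5.38 (limma adjusted p = 4.75e-05), each in 6 of 6 tumours. Igf1r, the receptor that Grb10 binds, differed by -0.24 (limma adjusted p = 0.611). Notch1, a receptor whose ligands Dlk1 resembles, differed by -0.12 (limma adjusted p = 0.708). Plag1, the oncogenic relative of Plagl1, was dim and differed by 0.02 (limma adjusted p = 0.982). Igf2bp3 and Lin28b, RNA-binding proteins of fetal tissue, differed by -0.46 (limma adjusted p = 0.15) and -0.51 (limma adjusted p = 0.403).

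Markers of the other liver cells varied between tumours. Of 8 endothelial markers 2 fell (Stab2 and Clec4g), of 8 Kupffer and myeloid markers 1 fell, and of 6 biliary and progenitor markers 1 rose. Other endothelial markers, named after their values were seen, had positive differences without passing the test. Pecam1 differed by 1.38 (limma adjusted p = 0.0997), Cdh5 by 1.0 (limma adjusted p = 0.119) and Emcn by 1.24 (limma adjusted p = 0.0878). The mean log2 level of the 8 overlapped, at 7.85 to 9.40 in HCC and 8.30 to 9.38 in normal liver, and their summed intensity was 1859 to 6105 and 4410 to 7443, with HCC 1 lowest in both. That of the Kupffer and myeloid markers was 4524 to 26638 in HCC and 7296 to 17601 in normal liver, with HCC 1 lowest and HCC 6 highest. The biliary and progenitor marker that rose was Prom1, by 4.29 (limma adjusted p = 0.00168), with HCC 1 highest at 13.16. The other 5 of that list, Krt7, Krt19, Epcam, Sox9 and Cftr, differed by -0.18 to 0.74 without passing, so their summed intensity, 1191 to 9650 in HCC and 533 to 1172 in normal liver, was not read as that of a class. Lymphocyte markers summed to 446 to 922 and 366 to 569, and 0 of 7 passed the test (limma), with 1 at an unadjusted p under 0.05. HCC 1 was lowest in the mean of the stellate, endothelial and Kupffer lists, and in Sgce, Peg3 and Plagl1. The part of these cells in the member values was not tested.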

How the data were processed

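Linear intensity values for 45101 probe sets on 12 arrays were used as deposited; per the labels' protocols, total RNA was amplified by one-cycle cDNA synthesis and labelled with biotin. The 2% trimmed mean of every array was 500.0, so the authors' values were scaled. The summarisation of probes is not stated in the sources used here. Values of log2(intensity + 16) were quantile normalized over all probe sets, and 64 control probe sets were then left out. The rest were fitted with limma 3.58.1 (R 4.3.3, lmFit and eBayes, 6 HCC against 6 normal livers, no covariates, two-sided). P-values were adjusted by Benjamini-Hochberg over all 45037 probe sets, with a threshold of 0.05, and the script was tested on simulated data. Genes come from the platform annotation (34945 probe sets named 1 gene, 932 several, 9160 none) and promoters, chromosomes and starts from RefSeq (GRCm38.p6). A promoter window was found for 7 of 10 members. Pairs of members were tested by exact permutation of pairings. Arrays limit the precision by their number. Tables and figures used Python 3.11.15, numpy 2.4.6, pandas 2.3.3 and matplotlib 3.10.9.

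The text names every member with its probe sets, other imprinted genes past the test, measured genes of the members' regions, Igf2, Igf2r, Rian, Mirg and a few growth partners. The members and gene lists were chosen with earlier results of these data known. The alternatives were other pseudocounts, scalings, filters on dim probe sets, variance settings, a stricter threshold, a mean over probe sets, samples with Y-linked signal only, a replicate block and each array left out. Both groups are numbered 1 to 6. Same-numbered samples had correlations of deviations of -0.0177 to 0.0636, which gave no reason to pair them.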

Additional observations from a re-analysis of the deposited data

Results flagged for a closer look

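In 5 of the 42 groups of 6 samples examined, 1 sample lay far from the others by Dixon's criterion (gap over range above 0.625), where chance gives about 1 in 20 groups. Dlk1 in HCC 1 stood at 9.26, with the next tumour at 6.21, a gap of 0.705 of the range. Plagl1 in HCC 1 stood at 4.46, with the next at 7.20, a gap of 0.745. Mirg in HCC 4 stood at 9.72, with the next at 7.80, a gap of 0.726. Phlda2 in HCC 3 stood at 10.41, with the next at 8.37, a gap of 0.648. Among the controls, Meg3 in normal liver 3 stood at 8.18, with the next at 8.66, a gap of 0.673. Normal liver 3 also lacked Y-linked signal.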

How the results depend on the processing

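The alternatives left the main pattern of 1 rise and 1 fall only in part. Of 37 member probe sets, 6 passed, and 3 did at a threshold of 0.01, 1 among samples with Y-linked signal and 4 to 8 with 1 array left out. With dim probe sets filtered out 3 passed, of fewer than 37, since the filter took member probe sets out of the test. Under that filter the limma adjusted p at the brightest probe set was 0.0079 for Grb10 and 0.0141 for Ndn. Of the 10 members, 2 passed, and 1 did with a pseudocount of 1 (Grb10), 1 to 3 with 1 array left out, and 0 both at a threshold of 0.01 and among samples with Y-linked signal (limma, 3 at an unadjusted p under 0.05 in each). The replicate block, a pairing by number that the correlations did not bear out, left 1 of the 10, with Ndn at an adjusted p of 0.0862; its own number gave the best correlation for 2 of 6 normal livers. Of the other imprinted genes 7 passed, against 4 with a pseudocount of 1, 13 with 64, 14 with the filter, 13 with trended and robust variance, 4 with Y-linked signal only, 3 at 0.01 and 3 to 8 with 1 array left out (3 without normal liver 2 or 5, 4 without normal liver 4 or 6). The 40 of 60 HCC values outside the normal range were 40 to 44 with 1 normal liver left out and 32 to 36, of a smaller total, with 1 HCC left out, and 0 pairs passed under all 4 alternatives. Without the 2 farthest tumours only r was given, since 4 tumours cannot pass.

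Differences near 0 changed sign. Peg3 was 0.042 with a pseudocount of 64, 0.0011 with the deposited scaling, 0.85 among samples with Y-linked signal, 0.27 as the mean of its probe sets and -0.39 to 0.32 with 1 array left out. Mest was 0.0012 with a pseudocount of 64, 0.13 with the deposited scaling, 0.065 with median centring and -0.22 to 0.14 with 1 array left out. Dlk1 was -0.047 among samples with Y-linked signal and -0.26 to 0.61 with 1 array left out. The cause was not tested. The other 7 members kept their sign in all alternatives run. Of the 37 probe sets 21 were below the median level, among them 4 of the 6 that passed.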
